A study of Mus musculus with 20 samples.

Results

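Cardiac fibroblasts (FBs) of *Gadlor*-KO mice were compared with FBs of WT mice, all isolated 2 weeks after transverse aortic constriction (TAC), an operation that narrows the aorta and puts the left ventricle under pressure overload. The comparison takes, by their labels, 6 of the 20 bulk RNA-seq samples of the series, WT-260, WT-277 and WT-283 against KO-240, KO-241 and KO-242. *Gadlor*-KO mice were homozygous for a CRISPR-Cas9 deletion of the lncRNAs *Gadlor1* and *Gadlor2*, which every cell of the animal carries. The line goes back to 1 targeted clone of G4 embryonic stem cells that was injected into C57BL/6 blastocysts, and WT littermates were the controls. The mice were young adults of both sexes at the operation, and all 6 had TAC, so the comparison holds no unoperated heart. FBs were collected with feeder removal beads from what passed through the CD146 bead selection of endothelial cells (ECs). The labels do not say whether a sample was 1 heart or a pool, so that p-values measure the spread between these samples.

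Cardiac FBs make and remodel the collagen-rich matrix between cardiomyocytes (CMs). Under pressure overload some of them become activated, express *Postn* and smooth muscle actin, and lay down fibrillar collagen. They also signal to vessels and immune cells through growth factors, chemokines and complement proteins.

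Levels are given as log2 CPM, the base 2 logarithm of counts per M reads, for the highest transcript of each of 13445 genes. The reads meant are those of an effective library, a divisor scaled for each sample. Over all transcripts CPM summed to 1513256 in WT-260 and to between 768242 and 1148314 in the other samples. Summed CPM are therefore not shares of the reads of a sample. A gene was called at an adjusted p under 0.05 (limma, Benjamini-Hochberg over all genes) with a fold change above 1.5. The markers matched the labelled cell type. *Pdgfra*, the PDGF receptor of resident fibroblasts, was at 6.52, 7.11 and 7.28 log2 CPM in WT samples, against 6.60, 5.94 and 6.19 in *Gadlor*-KO samples. *Dcn*, the proteoglycan decorin, ranged from 10.56 to 11.69 and *Col1a1*, a chain of type I collagen, from 10.76 to 13.24. As the median over 12 fibroblast identity genes, FB samples held 10.7 to 18.0 times the level of ECs of the same genotype, in tables that were normalized separately. Against CMs of the same genotype they held 73.8 to 119 times the level in WT samples, but 3.71 to 4.12 times in *Gadlor*-KO samples.

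WT-260 stood apart from the other WT samples, and endothelial marker RNA was higher in every *Gadlor*-KO sample than in any WT sample. Effective library sizes were taken from the steps between low values and are divisors, not counts of the reads sequenced. They were 15 M reads for WT-260, 59.8 and 56.3 M for WT-277 and WT-283, and between 22.9 and 33.8 M for *Gadlor*-KO. Mitochondrially encoded genes took 73.8% of the CPM in WT-260, 3.85% and 5.77% in WT-277 and WT-283, and 46.6% to 61.1% in *Gadlor*-KO samples. The 16 endothelial markers summed to 827 CPM in WT-260, to 76.4 and 141 CPM in WT-277 and WT-283 and to 1325 to 2357 CPM in *Gadlor*-KO samples, and 1 of them, *Sox17*, was at the lowest value of the table in WT-277. The 12 cardiomyocyte markers summed to 692 CPM in WT-260, to 24.5 and 52.9 CPM in WT-277 and WT-283 and to 243 to 442 CPM in *Gadlor*-KO samples. Over all genes WT-260 correlated with *Gadlor*-KO samples at 0.911 to 0.943 and with the other WT samples at 0.855 and 0.899 (Pearson r over genes, which are not independent). Y-linked genes summed to 32.7, 42.5 and 37.4 CPM in WT-260, WT-277 and KO-240 and to at most 0.962 CPM in the other samples, so sex was not balanced over the genotypes. Each comparison is therefore given over all 6 samples and without WT-260.

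**Figure D1:**
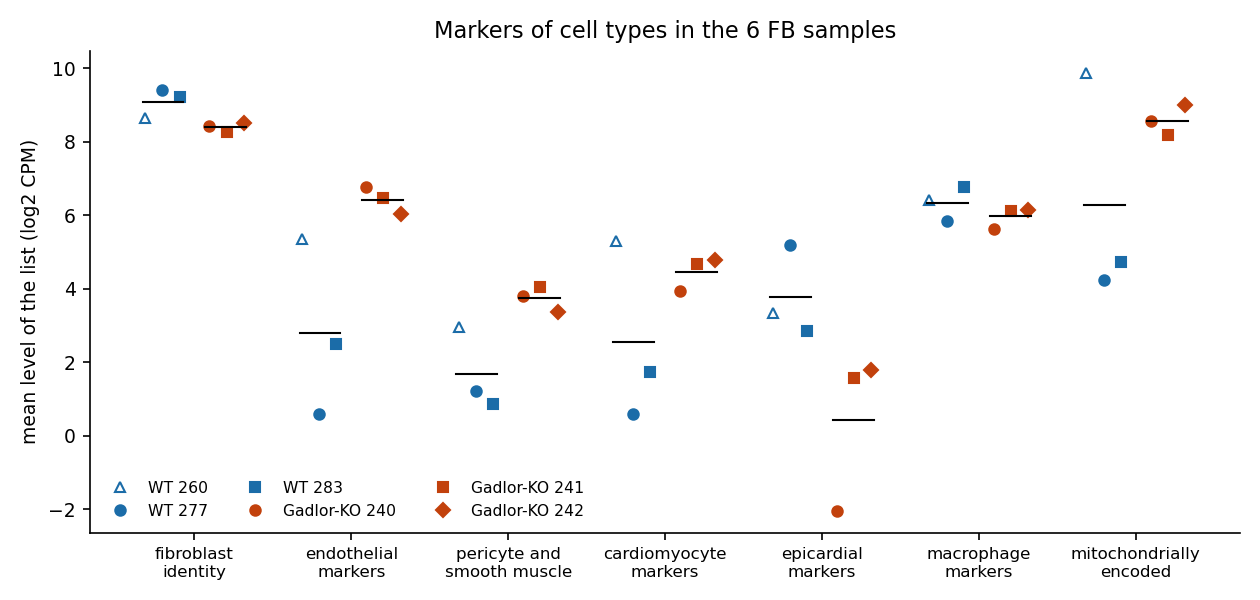
Mean level of 7 gene lists (y axis, log2 CPM) in each FB sample, WT in blue with WT-260 as an open triangle and *Gadlor*-KO in orange, with black bars for group means. Endothelial markers lay at 0.59 and 2.48 in WT-277 and WT-283, at 5.34 in WT-260 and at 6.03 to 6.77 in *Gadlor*-KO samples.

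Over all 6 samples 1 gene was called, *Rasd1*, which was higher in *Gadlor*-KO FBs (0.00744% of the genes tested), and 0 genes were called lower (0%). At an unadjusted limma p under 0.05 with that fold change, 944 genes had higher (7.02%) and 589 lower levels (4.38%). Without WT-260, 818 genes were called higher (6.08%) and 440 lower (3.27%). These counts depended on single samples, with 353 higher and 48 lower on also leaving out KO-241, and 975 and 775 on also leaving out KO-240. The split of the 818 and 440 genes also depended on the scaling. It became 1437 higher and 228 lower with CPM scaled to nuclear-encoded genes, which moved the median of all genes to 0.24, and 749 higher and 672 lower with equal sample medians.

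WT-260 took no part in the calls made without it, but the same *Gadlor*-KO samples set both those calls and the range used here. Genes called higher were selected for high *Gadlor*-KO values and genes called lower for low ones. The shares over all genes are therefore not those to expect without a change, and the position of WT-260 is a description, not an independent check. Of the 818 genes called higher, WT-260 lay below every *Gadlor*-KO sample in 552 (67.5%), against 33.6% of all genes tested. Of the 440 genes called lower, it lay above every *Gadlor*-KO sample in 228 (51.8%), against 29.9% of all genes. With the *Gadlor*-KO mean set to 0 and the mean of WT-277 and WT-283 to 1, WT-260 had a median position of 0.26 for the genes called higher and of 0.17 for those called lower. For most called genes WT-260 lay on the WT side of the *Gadlor*-KO mean, which the selection itself favours. By its median position it was nearer to the *Gadlor*-KO mean than to the other WT samples. Over all 6 samples the groups did not overlap in 1638 genes with higher levels in *Gadlor*-KO FBs (12.2%) and in 1219 with lower levels (9.07%).

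**Figure D2:**
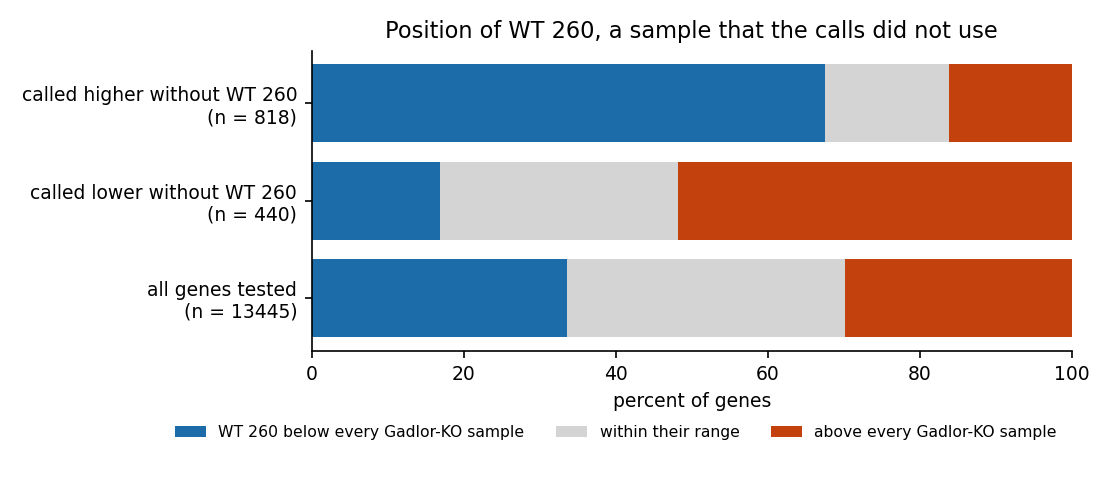
Share of genes (percent) in which WT-260 lay below, within or above the range of the 3 *Gadlor*-KO samples, for genes called higher and lower without it and for all genes tested. It lay below every *Gadlor*-KO sample in 67.5% of the genes called higher and in 33.6% of all genes. The calls used the same *Gadlor*-KO samples, which favours this order.

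*Rasd1*, a Ras-related GTPase known as a gene induced by glucocorticoids, lies on chromosome 11 from 59963181 to 59964944 on the minus strand of mm10. Its level was 1.06, 0.95 and 0.62 log2 CPM in WT samples, against 3.73, 3.81 and 3.41 in *Gadlor*-KO samples. The WT samples lay close together, with a mean of 0.88 ± 0.23 (SD, n = 3), and every *Gadlor*-KO sample lay above them, with a mean of 3.65 ± 0.21 (SD, n = 3). The log2 fold change was 2.77 ± 0.21 (SE), a 6.83-fold rise (limma, adjusted p = 0.0292), and without WT-260 it was 2.86 ± 0.21 (adjusted p = 0.00134). Over all 6 samples the call was lost on leaving out any sample other than WT-260, with CPM scaled to nuclear-encoded genes, and with Y-linked or endothelial markers as a covariate, at log2 fold changes of 2.61 to 2.91.

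*Rasd1* was higher in ECs than in FBs, with mean log2 CPM of 5.69 for WT ECs and 5.91 for *Gadlor*-KO ECs. The *Gadlor*-KO FB level was 20.8% of the *Gadlor*-KO EC level, where the median endothelial marker stood at 16.4% to 26.0% in these FB samples. In WT-260 *Rasd1* was at 4.05% of the WT EC level, where the median endothelial marker stood at 10.2%. In a bulk sample fewer cells of a type and less RNA per cell cannot be told apart, and the part of EC RNA in the rise of *Rasd1* was not tested beyond the covariate.

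The genes with the next smallest p over all 6 samples were singled out after their values were seen. *Endou*, a uridylate-specific endoribonuclease, was at -1.23, -1.68 and -1.86 log2 CPM in WT samples, against 2.02, 1.93 and 1.92 in *Gadlor*-KO samples. *Rsad2*, the interferon-induced antiviral enzyme viperin, was at 2.90, 2.41 and 2.38 in WT samples, against 4.74, 4.61 and 4.28 in *Gadlor*-KO samples. *Plk2*, a stress-responsive polo-like kinase, was at 4.22, 3.95 and 3.75 in WT samples, against 5.69, 5.79 and 5.50 in *Gadlor*-KO samples. All 3 genes had groups that did not overlap, and WT-260 was the highest WT sample in each. The log2 fold changes over all 6 samples were 3.55 ± 0.35, 1.98 ± 0.21 and 1.68 ± 0.18 for *Endou*, *Rsad2* and *Plk2*, at an adjusted p of 0.0752 each, and all 3 were called higher without WT-260. *Apold1*, a gene of vessel endothelium, was at 3.55, 2.17 and 2.83 in WT samples, against 6.48, 6.20 and 5.72 in *Gadlor*-KO samples, with a log2 fold change of 3.29 ± 0.37 (adjusted p = 0.0895). The *Gadlor*-KO FB level was 33.3% of that of *Gadlor*-KO ECs for *Endou*, 33.8% for *Rsad2*, 42.4% for *Plk2* and 25.9% for *Apold1*. In WT-260 these genes stood at 3.07% to 8.0% of the WT EC level.

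In the other direction, *Emilin2*, an elastin-associated glycoprotein, was at 5.43, 6.09 and 5.76 log2 CPM in WT samples, against 4.22, 4.02 and 4.27 in *Gadlor*-KO samples. *Nnt*, the mitochondrial nicotinamide nucleotide transhydrogenase, whose gene carries a deletion in the C57BL/6J strain, was at 4.09, 4.33 and 4.01 in WT samples, against 3.06, 2.71 and 2.90 in *Gadlor*-KO samples. The groups of both did not overlap, and WT-260 lay beside the other WT samples. The log2 fold changes were -1.59 ± 0.20 for *Emilin2* and -1.25 ± 0.17 for *Nnt* (adjusted p = 0.125 each), and both were called lower without WT-260. The mean level of *Nnt* was 3.78 for WT ECs against 3.35 for *Gadlor*-KO ECs, and 7.90 for WT CMs against 3.96 for *Gadlor*-KO CMs. *Nnt* lies on chromosome 13 from 119335448 to 119408997 on the minus strand of mm10.

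**Figure D3:**
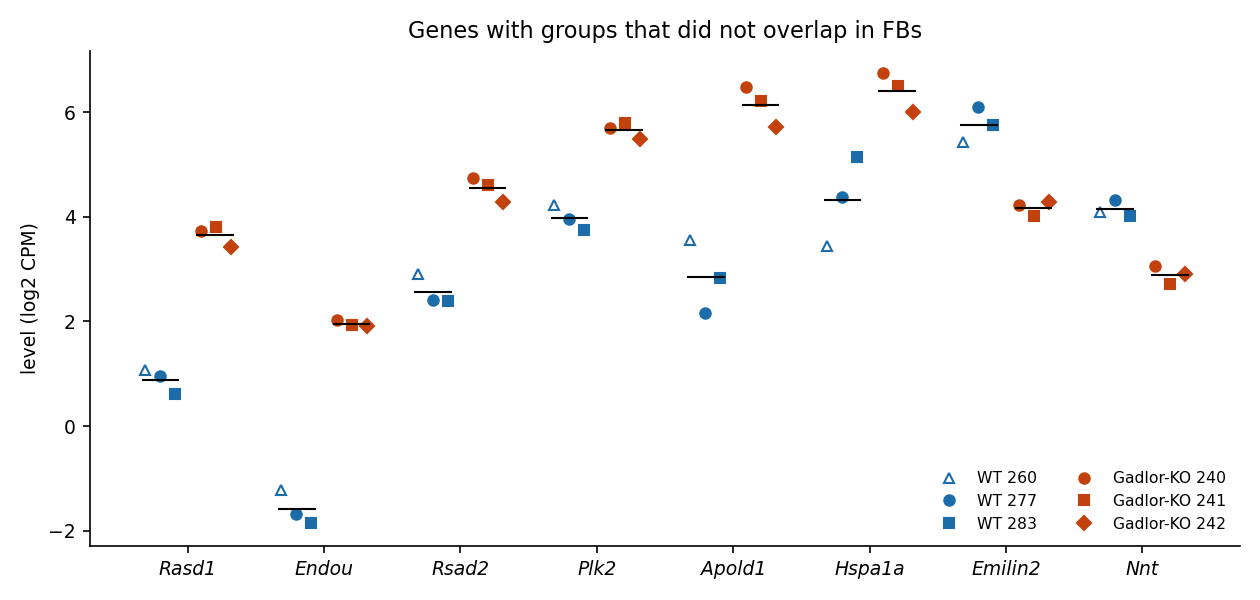
Level (y axis, log2 CPM) of 8 genes in each FB sample, WT in blue with WT-260 as an open triangle and *Gadlor*-KO in orange, with black bars for group means. WT-260 lay with the other WT samples for *Rasd1*, at 1.06, and for *Nnt*, at 4.09, and the groups of all 8 genes did not overlap.

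The promoters of *Rsad2*, *Plk2* and *C3* are shown because these genes stand for the interferon, stress and complement genes described here. They are RefSeq sequences of build GRCm38.p6, 5′ to 3′ on the strand of the gene, from 250 bases before to 50 after its start, and capitals mark motif matches on either strand. An entry was found for 3 of the 4 genes searched, which included *Rasd1*.
Rsad2, chr12:26456403-26456702, minus strand: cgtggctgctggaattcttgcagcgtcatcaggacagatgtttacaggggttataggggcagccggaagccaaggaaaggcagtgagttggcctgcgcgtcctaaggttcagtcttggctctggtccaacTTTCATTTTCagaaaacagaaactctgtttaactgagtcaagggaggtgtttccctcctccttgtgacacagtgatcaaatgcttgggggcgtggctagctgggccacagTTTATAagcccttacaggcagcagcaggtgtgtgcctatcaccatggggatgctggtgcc
Plk2, chr13:110394794-110395093, plus strand: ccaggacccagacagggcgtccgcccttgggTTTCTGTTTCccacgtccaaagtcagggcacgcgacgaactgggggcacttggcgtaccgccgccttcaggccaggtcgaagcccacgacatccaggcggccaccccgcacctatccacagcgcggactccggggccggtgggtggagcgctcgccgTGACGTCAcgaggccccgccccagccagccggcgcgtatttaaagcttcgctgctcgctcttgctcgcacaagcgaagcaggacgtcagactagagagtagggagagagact
C3, chr17:57228087-57228386, minus strand: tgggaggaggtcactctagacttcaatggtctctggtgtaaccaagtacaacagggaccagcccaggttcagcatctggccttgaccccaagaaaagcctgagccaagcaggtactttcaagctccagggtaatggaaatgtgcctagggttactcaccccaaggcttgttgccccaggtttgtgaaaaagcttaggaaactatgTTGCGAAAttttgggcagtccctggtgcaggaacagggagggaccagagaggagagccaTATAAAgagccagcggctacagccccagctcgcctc
The interferon response element, searched as GAAA, any bases NN and GAAA, matched the promoters of *Rsad2* and *Plk2* and 3.44% of the 32851 promoters of the same length. The cAMP response letters TGACGTCA matched that of *Plk2* and 1.79% of all promoters. The C/EBP letters TTGCNNAA matched that of *C3* and 10.8% of all, and the TATA letters TATAAA those of *Rsad2* and *C3* and 13.6% of all. No searched motifs overlapped in these promoters, and a match is a description of the letters, not a site.

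The 12 largest rises without WT-260, among genes of at least 10 CPM with groups that did not overlap, were *Gpihbp1*, *Ushbp1*, *Cdh5*, *Adgrl4*, *Robo4*, *Arhgef15*, *Cd300lg*, *Egfl7*, *Tie1*, *Emcn*, *Rasip1* and *Flt1*, most of them known from vascular endothelium. *Cdh5*, the VE-cadherin of endothelial junctions, was at 6.77, 0.20 and 3.88 log2 CPM in WT samples, against 8.73, 8.42 and 7.96 in *Gadlor*-KO samples. *Gpihbp1*, which carries lipoprotein lipase across capillary endothelium, was at 4.11, -2.63 and 0.92 in WT samples, against 6.85, 6.06 and 5.61 in *Gadlor*-KO samples. *Flt1*, a VEGF receptor, was at 5.81, 0.94 and 2.77 in WT samples, against 8.22, 7.22 and 6.88 in *Gadlor*-KO samples. In all 3 WT-260 was nearer to the *Gadlor*-KO mean than to that of the other WT samples. Without WT-260 the log2 fold changes of the 12 genes ranged from 5.58 for *Flt1* to 7.03 for *Gpihbp1*, with an adjusted p from 0.00284 for *Flt1* to 0.0146 for *Robo4*. Over all 6 samples they ranged from 4.08 for *Emcn* to 5.37 for *Gpihbp1*, with an adjusted p from 0.203 for *Flt1* to 0.278 for *Emcn*. All 12 had a higher mean in *Gadlor*-KO ECs than in *Gadlor*-KO FBs.

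Markers of endothelium as a list were higher in *Gadlor*-KO FBs. Of 16 markers 15 were called higher without WT-260, against 6.08% of all genes, 15 had groups that did not overlap, against 12.2%, and the median log2 fold change was 5.27, against 0.00 over all genes. The median was 3.91 over all 6 samples, where 15 markers passed the unadjusted p with the fold threshold. *Pecam1*, the adhesion protein CD31, and *Fabp4*, a fatty acid carrier of capillaries, had log2 fold changes of 4.49 ± 0.39 and 5.40 ± 0.31 without WT-260. As the median over the list, the markers stood at 10.2% of the WT EC level in WT-260, at 0.380% and 1.04% in WT-277 and WT-283, and at 26.0%, 21.0% and 16.4% of the *Gadlor*-KO EC level in KO-240, KO-241 and KO-242. WT-260 lay between the other WT samples and the *Gadlor*-KO samples in this share.

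Markers of mural cells and cardiomyocytes also differed. Of 8 pericyte and smooth muscle markers 5 were called higher without WT-260, against 6.08% of all genes, among them *Rgs5*, a pericyte regulator of G proteins, at a log2 fold change of 5.27 ± 0.40. *Mcam*, the CD146 protein used to select ECs, was at 3.68, 0.98 and 1.52 log2 CPM in WT samples, against 5.04, 5.73 and 5.16 in *Gadlor*-KO samples, so the *Gadlor*-KO FB samples held more mRNA of the selection protein. Of 12 cardiomyocyte markers 11 were called higher without WT-260, against 6.08% of all genes, but 0 had groups that did not overlap, against 12.2%, and WT-260 lay above every *Gadlor*-KO sample in 9. *Tnnt2*, cardiac troponin T, was at 6.21, 1.79 and 2.19 in WT samples, against 4.80, 5.04 and 5.41 in *Gadlor*-KO samples, and *Myh6*, the alpha cardiac myosin heavy chain, at 5.65, 1.40 and 2.66 in WT samples, against 4.92, 5.30 and 5.26 in *Gadlor*-KO samples. WT-260 had the highest level of both. Of the measured markers of granulocytes (3), lymphocytes (1), erythroid cells (5) and Schwann cells (1), 0 were called in either fit (limma, with 0 past the unadjusted p and the fold threshold over all 6 samples).

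Most genes called higher had a higher level in ECs than in FBs. Of 759 genes called higher without WT-260 and present in all 3 tables, 713 (93.9%) had a higher level in *Gadlor*-KO ECs than in *Gadlor*-KO FBs, against 78.7% of the 12053 genes in all tables. Of 371 genes called lower, 98 had this order (26.4%). A higher level in *Gadlor*-KO CMs was found for 54.0% of the genes called higher and 24.2% of all genes. Higher in neither were 21 genes called higher (2.77%), against 19.6% of all genes. When the endothelial marker mean was added as a covariate, limma called 0 genes over all 6 samples and 0 without WT-260. That mean is close to the genotype itself, since the groups do not overlap in it, so the part of other cells' RNA and that of genotype cannot be told apart in this fit.

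Leaving out predicted genes, 12 genes were called higher without WT-260 with groups that did not overlap and with a *Gadlor*-KO level at or above those of *Gadlor*-KO ECs and CMs, and *Hspa1a*, *Hspa1b*, *Dnaja1* and *Hsph1* were among them. *Hspa1a*, an inducible HSP70 chaperone, was at 3.43, 4.39 and 5.14 log2 CPM in WT samples, against 6.74, 6.50 and 5.99 in *Gadlor*-KO samples. *Dnaja1*, a DNAJ cochaperone, was at 3.65, 4.28 and 4.03 in WT samples, against 5.75, 5.32 and 5.04 in *Gadlor*-KO samples. WT-260 had the lowest value of both genes. Of 14 heat shock chaperones 4 were called higher without WT-260, against 6.08% of all genes, *Hspa1a* at 1.65 ± 0.30, *Hspa1b* at 1.71 ± 0.35, *Dnaja1* at 1.22 ± 0.23 and *Hsph1*, an HSP110 nucleotide exchange factor, at 0.81 ± 0.17, and 7 had groups that did not overlap, against 12.2% of all genes. *Hspa1a* and *Hspa1b* are near-identical copies that share reads, so their separate values are uncertain. WT ECs had a higher mean than *Gadlor*-KO FBs for all 4, with 8.06 against 6.41 for *Hspa1a*, 7.4 against 5.84 for *Hspa1b*, 6.19 against 5.37 for *Dnaja1* and 6.66 against 5.22 for *Hsph1*. With the endothelial covariate the log2 fold changes without WT-260 turned to -0.71 for *Hspa1a* and -1.33 for *Hspa1b* and were 1.16 for *Dnaja1* and 0.52 for *Hsph1*, none of them called. The median of the list was 0.38 over all 6 samples and 0.46 without WT-260. The largest change of the 12 genes, singled out after its value was seen, was that of *Cyp26b1*, which degrades retinoic acid, at 0.81, 1.56 and 0.15 in WT samples, against 3.40, 2.81 and 3.70 in *Gadlor*-KO samples and a log2 fold change of 2.44 ± 0.45 without WT-260 (adjusted p = 0.0206).

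The 12 largest falls by the same rule were *Myrf*, *C3*, *Gdf10*, *Ildr2*, *Col6a6*, *Adamts12*, *Cfb*, *Ighm*, *Col6a3*, *Cpxm1*, *Ugt1a10* and *Ugt1a8*. *C3*, the central complement component, was at 9.07, 10.81 and 10.27 log2 CPM in WT samples, against 8.92, 7.10 and 7.0 in *Gadlor*-KO samples. *Gdf10*, a TGF-beta family ligand, was at 4.10, 6.4 and 5.10 in WT samples, against 3.29, 2.67 and 2.72 in *Gadlor*-KO samples. *Myrf*, a membrane-bound transcription factor, was at 3.85, 6.57 and 4.42 in WT samples, against 1.04, 2.66 and 3.02 in *Gadlor*-KO samples. WT-277 had the highest and WT-260 the lowest WT value of all 3, and for *C3* WT-260 and KO-240 lay close together. Without WT-260 the log2 fold changes were -2.86 ± 0.57 for *C3* (adjusted p = 0.0273), -2.86 ± 0.39 for *Gdf10* (adjusted p = 0.00719) and -3.25 ± 0.76 for *Myrf* (adjusted p = 0.0439). With all 6 samples they were -2.37, -2.31 and -2.70, with an adjusted p of 0.184, 0.166 and 0.222. *Ighm*, the immunoglobulin heavy chain of B cells, had a log2 fold change of -2.04 ± 0.44, and *Adamts12*, a secreted metalloprotease, of -2.32 ± 0.29, both without WT-260. *Ildr2*, a receptor of the immunoglobulin superfamily, and *Cpxm1*, a secreted carboxypeptidase-like protein, were at -2.75 ± 0.45 and -1.93 ± 0.43. *Ugt1a10* and *Ugt1a8* belong to a locus whose genes share exons, and their FB values were identical, so their log2 fold change of -1.89 ± 0.43 is 1 measurement that cannot be assigned to either.

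Complement genes had the lowest median of all lists other than the cell type markers and the Y-linked genes. Of 11 measured members 5 were called lower without WT-260, against 3.27% of all genes, 0 were called higher, and 6 had groups that did not overlap, against 9.07%. *C4b*, of the classical pathway, was at 6.20, 8.08 and 7.04 log2 CPM in WT samples, against 6.18, 5.36 and 5.62 in *Gadlor*-KO samples. *C1ra*, a protease of the C1 complex, was at 5.37, 6.37 and 6.08 in WT samples, against 5.17, 4.61 and 4.76 in *Gadlor*-KO samples. *Cfb*, the protease of the alternative pathway, was at 3.50, 5.48 and 4.45 in WT samples, against 2.53, 3.25 and 2.87 in *Gadlor*-KO samples. WT-260 was the lowest WT sample in all 3, and for *C4b* it was level with KO-240. The log2 fold changes without WT-260 were -1.84 ± 0.36 for *C4b*, -1.38 ± 0.21 for *C1ra* and -2.08 ± 0.34 for *Cfb*. The median of the list was -1.38 without WT-260 and -1.21 over all 6 samples, against 0.00 and 0.01 over all genes, and with the endothelial covariate it was 0.16 and -0.25. Of 12 markers of macrophages, which also make complement, 0 were called in either fit (limma, with 1 lower at the unadjusted p over all 6 samples). Their log2 fold change was below 0 in 11 of the 12 in both fits, against 6551 and 6660 of 13445 genes. The median was -0.42 over all 6 samples and -0.40 without WT-260. They summed to 954 to 1993 CPM in WT and 851 to 1250 CPM in *Gadlor*-KO samples, and WT-260 lay above every *Gadlor*-KO sample in 10. Their part in the lower complement genes was not tested. *Cd68*, a lysosomal protein of these cells, was at 6.33, 6.04 and 7.15 in WT samples, against 5.76, 6.14 and 5.83 in *Gadlor*-KO samples.

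Of 12 measured genes of fibroblast identity 0 were called over all 6 samples (limma, with 5 lower at the unadjusted p). Without WT-260 4 were called lower, against 3.27% of all genes, 0 were called higher and the others were not called, and 4 had groups that did not overlap, against 9.07%. *Ddr2*, a collagen receptor of fibroblasts, was at 6.14, 7.13 and 6.80 log2 CPM in WT samples, against 5.80, 5.54 and 5.72 in *Gadlor*-KO samples. *Islr*, a marker of stromal fibroblasts, was at 8.05, 8.65 and 8.94 in WT samples, against 7.82, 7.72 and 7.85 in *Gadlor*-KO samples. Both had groups that did not overlap, and the log2 fold changes without WT-260 were -1.28 ± 0.18 and -1.0 ± 0.18. *Pdgfra* and *Lum*, the proteoglycan lumican, were called lower at -0.95 ± 0.22 and -1.17 ± 0.22, but their groups overlapped. *Dcn* was not called, at -0.68 ± 0.26 (adjusted p = 0.153), although its groups did not overlap. The 12 genes summed to 12329 CPM in WT-260, to 23569 and 17298 CPM in WT-277 and WT-283 and to 9269 to 10836 CPM in *Gadlor*-KO samples. Within WT the order was the reverse of that of the endothelial markers, but within *Gadlor*-KO it was not. KO-241 had the lowest sum of the 12 genes, whereas KO-240 had the highest sum of endothelial markers. The median log2 fold change was -0.76 over all 6 samples and -0.97 without WT-260, and -0.73 without it with CPM scaled to nuclear-encoded genes. With the endothelial covariate it was -0.21 over all 6 samples and -0.28 without WT-260.

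Of 8 genes of adventitial and progenitor fibroblasts 5 had groups that did not overlap, all with lower levels in *Gadlor*-KO FBs, against 9.07% of all genes. *Cd248*, the endosialin of perivascular stroma, was at 7.68, 8.65 and 8.81 log2 CPM in WT samples, against 6.46, 7.30 and 7.11 in *Gadlor*-KO samples and was the 1 called member, at -1.78 ± 0.27 without WT-260 (adjusted p = 0.0104). *Clec3b*, tetranectin, had a log2 fold change of -0.77 ± 0.19 over all 6 samples and -0.68 ± 0.19 without WT-260 and was called in neither. *Ly6a*, the Sca-1 antigen that endothelium shares, was at 0.74 ± 0.18 without WT-260 and not called.

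Epicardial markers had the lowest median of all lists, -3.62 over all 6 samples and -3.66 without WT-260, and 5 of 6 had groups that did not overlap, against 9.07% of all genes, although 0 were called (limma, with 4 lower at the unadjusted p over all 6 samples). *Upk3b*, a uroplakin of the epicardial surface, was at 4.89, 6.39 and 4.46 log2 CPM in WT samples, against -1.36, 2.53 and 1.97 in *Gadlor*-KO samples, with a log2 fold change of -4.38 ± 1.16 without WT-260 (adjusted p = 0.0625). The markers summed to 61.0 to 291 CPM in WT and 13.4 to 32.9 CPM in *Gadlor*-KO samples, and their part in the lower levels of other genes was not tested.

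Of the activation genes, 0 had groups that did not overlap, against 12.2% of all genes higher and 9.07% lower, a count that says little for so short a list. Of 12, 1 was called higher without WT-260, a share near that of all genes. It was *Acta2*, the smooth muscle actin of myofibroblasts and vessel walls, at 6.18, 4.38 and 4.54 log2 CPM in WT samples, against 5.36, 6.56 and 6.38 in *Gadlor*-KO samples. The groups overlapped, and its log2 fold change of 1.64 ± 0.35 stands beside the higher pericyte and smooth muscle markers, whose part in it was not tested. *Postn*, periostin of activated fibroblasts, was at 8.54, 10.36 and 9.89 in WT samples, against 9.32, 9.83 and 9.92 in *Gadlor*-KO samples, and *Thbs4*, thrombospondin 4, at 5.93, 8.37 and 7.93 in WT samples, against 8.06, 7.97 and 7.42 in *Gadlor*-KO samples. In both the WT range enclosed all *Gadlor*-KO values. The list had a median of 0.38 over all 6 samples and -0.04 without WT-260, which became 0.20 with CPM scaled to nuclear-encoded genes. With the endothelial covariate the median was 1.70 over all 6 samples and 1.61 without WT-260. The log2 fold change was above 0 in 11 of the 12 over all 6 samples, against 6894 of 13445 genes tested, but in 4 of the 12 without WT-260. WT-260 lay below every *Gadlor*-KO sample in 8 of them. Of 13 genes of the contractile cytoskeleton 2 were called higher without WT-260 (against 6.08% of all genes), *Acta2* and *Lmod1*, the smooth muscle leiomodin, the latter at 2.00 ± 0.31. For *Lmod1* the groups overlapped, and WT-260, at 2.52, lay above every *Gadlor*-KO sample.

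Of 19 fibroblast transcription factors 5 were called lower (against 3.27% of all genes) and 0 higher without WT-260, among them *Gata6*, a cardiac GATA factor, at -1.16 ± 0.24 and *Twist2*, a basic helix-loop-helix factor of mesenchyme, at -0.89 ± 0.19. The groups of *Twist2* did not overlap, at 3.56, 3.82 and 4.07 log2 CPM in WT samples, against 2.92, 2.92 and 3.30 in *Gadlor*-KO samples. WT-260 and KO-240 had the same *Gata6* level of 4.84, and its groups overlapped.

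Among matrix genes, all 5 measured chains of collagen VI, which forms beaded microfibrils around cells, had a lower level in every *Gadlor*-KO sample than in any WT sample. *Col6a6* was at 5.22, 6.96 and 6.03 log2 CPM in WT samples, against 4.12, 3.77 and 3.74 in *Gadlor*-KO samples. *Col6a3* was at 7.25, 8.95 and 8.88 in WT samples, against 6.82, 7.04 and 6.93 in *Gadlor*-KO samples. *Col6a1* was at 9.11, 10.09 and 9.92 in WT samples, against 8.60, 9.03 and 9.01 in *Gadlor*-KO samples. WT-260 was the lowest WT sample of these chains, and for *Col6a1* it lay within 0.1 of KO-241. Without WT-260 the log2 fold changes were -2.62 ± 0.29 for *Col6a6* (adjusted p = 0.0034), -1.98 ± 0.17 for *Col6a3* and -1.12 ± 0.22 for *Col6a1*, and all 3 were called lower. Over all 6 samples they were -2.19 ± 0.41, -1.43 ± 0.45 and -0.83 ± 0.32, with an adjusted p of 0.14, 0.222 and 0.284. *Col6a2* and *Col6a5*, named after their values were seen, were not called, at -1.02 ± 0.32 and -6.65 ± 2.37, and *Col6a5* ranged from -5.19 to 2.09 within *Gadlor*-KO samples, the lower of these being the lowest value of the table, so its fitted change depends on the prior count.

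Fibrillar collagens, the main fibres of scar, overlapped between the genotypes. Of 9 chains 1 was called lower without WT-260 (against 3.27% of all genes), *Col5a1*, which regulates fibre diameter, at -1.33 ± 0.25. The groups did not overlap in 0 chains, against 12.2% of all genes higher and 9.07% lower, a count that says little for so short a list. *Col1a1* was at 11.61, 13.24 and 12.20 log2 CPM in WT samples, against 10.76, 11.63 and 11.84 in *Gadlor*-KO samples. *Col3a1*, a chain of type III collagen, was at 10.50, 12.46 and 11.48 in WT samples, against 9.78, 10.53 and 10.97 in *Gadlor*-KO samples. WT-260 lay within the *Gadlor*-KO range for both, and WT-277 was the highest of all samples. Without WT-260 the log2 fold changes were -1.31 ± 0.44 and -1.54 ± 0.44 (adjusted p = 0.117 and 0.0748), and neither was called. The list had a median of -0.67 over all 6 samples and -1.04 without WT-260, which turned to 0.62 and 1.67 with the endothelial covariate. Of 10 measured microfibril, FACIT and short-chain collagens, which include collagen VI, 4 were called lower (against 3.27% of all genes) and 0 higher without WT-260. The median of that list was -0.83 over all 6 samples and -1.07 without WT-260, and 0.20 and -0.21 with the endothelial covariate. *Col14a1*, which coats collagen fibres, was called lower without WT-260 at -1.49 ± 0.26, with overlapping groups.

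**Figure D4:**
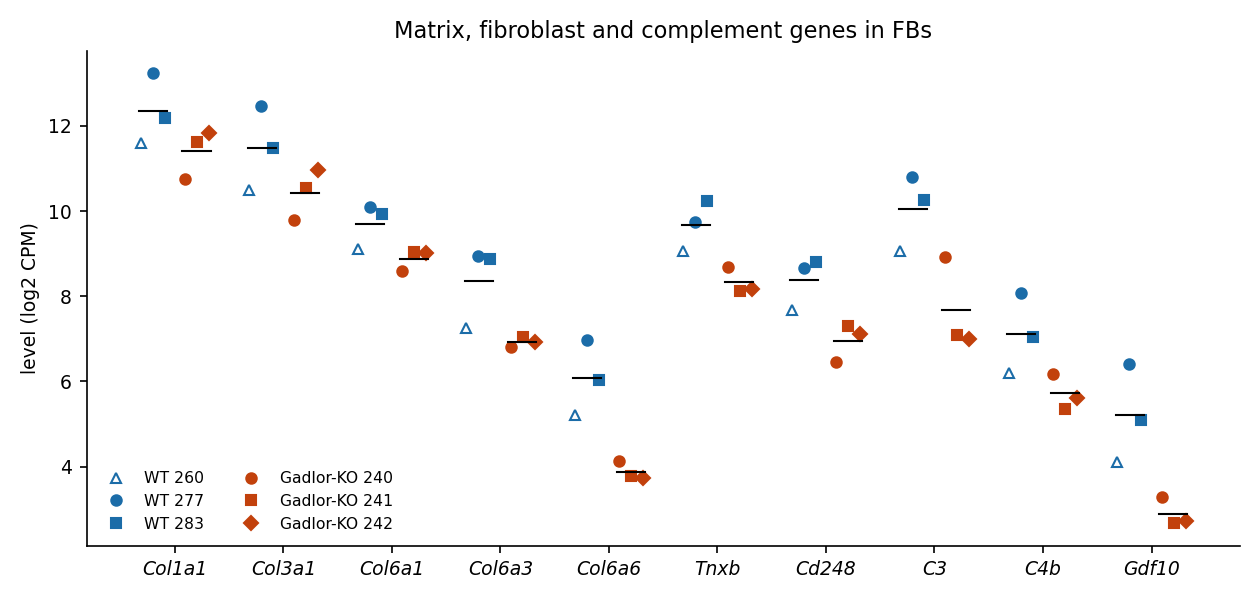
Level (y axis, log2 CPM) of 10 matrix, fibroblast and complement genes in each FB sample, WT in blue with WT-260 as an open triangle and *Gadlor*-KO in orange, with black bars for group means. *Col6a6* separated the groups, with WT-260 at 5.22 and *Gadlor*-KO samples at 3.74 to 4.12, whereas *Col1a1* and *Col3a1* overlapped.

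Of 17 basement membrane genes 5 were called lower and 1 higher without WT-260 (against 6.08% of all genes higher and 3.27% lower), so the count of higher genes is near the background. *Lama2*, a laminin chain of muscle and stroma, was at 7.51, 8.25 and 8.37 log2 CPM in WT samples, against 7.5, 7.21 and 7.26 in *Gadlor*-KO samples. *Nid1*, the linker nidogen, was at 9.13, 10.04 and 9.81 in WT samples, against 9.0, 8.76 and 8.69 in *Gadlor*-KO samples. In both WT-260 and KO-240 were close together, and the log2 fold changes without WT-260 were -0.98 ± 0.18 and -1.11 ± 0.20. *Lama5*, a laminin chain of vessel walls, went the other way, at 4.35, 3.16 and 1.68 in WT samples, against 5.87, 5.26 and 5.10 in *Gadlor*-KO samples and a log2 fold change of 2.99 ± 0.44. Its *Gadlor*-KO FB level was 27.0% of that of *Gadlor*-KO ECs.

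Of 20 genes of collagen processing 5 were called lower (against 3.27% of all genes) and 0 higher without WT-260, among them *Pcolce*, an enhancer of procollagen cleavage, at -1.23 ± 0.21 and *Loxl1*, a crosslinking oxidase, at -1.04 ± 0.19, and of the called genes *Pcolce* alone had groups that did not overlap. Of 16 elastic fibre genes 4 were called lower, against the same 3.27%. *Efemp1*, a fibulin, was at 4.20, 4.04 and 4.16 log2 CPM in WT samples, against 3.23, 2.18 and 2.42 in *Gadlor*-KO samples. *Ltbp1*, which stores latent TGF-beta in the matrix, was at 6.26, 6.41 and 6.04 in WT samples, against 5.54, 5.21 and 5.19 in *Gadlor*-KO samples. In both WT-260 lay within the range of the other WT samples or within 0.1 of it, and the log2 fold change was nearly the same over all 6 samples and without WT-260, at -1.53 and -1.49 for *Efemp1* and -0.92 and -0.91 for *Ltbp1*. *Fbn1*, the microfibril protein fibrillin, was called lower without WT-260 at -1.39 ± 0.24, with overlapping groups.

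Of 9 small leucine-rich proteoglycans 2 were called lower without WT-260 (against 3.27% of all genes), *Lum* and *Podn*, a proteoglycan of vessel walls and stroma, the latter at 6.32, 6.77 and 6.74 log2 CPM in WT samples, against 5.58, 5.45 and 5.88 in *Gadlor*-KO samples, with groups that did not overlap. Of 19 matricellular and injury genes 3 were called lower, against the same share, *Vcan*, the proteoglycan versican, at -1.45 ± 0.20, *Tnxb*, tenascin X of mature connective tissue, at -1.66 ± 0.26 and *Tnc*, tenascin C of injured tissue, at -1.63 ± 0.31. *Tnxb* had groups that did not overlap, at 9.05, 9.75 and 10.23 in WT samples, against 8.69, 8.12 and 8.18 in *Gadlor*-KO samples. For *Tnc* the groups overlapped, and WT-260, at 4.66, lay below every *Gadlor*-KO sample. *Fn1*, fibronectin, ranged from 8.25 in WT-260 to 11.40 in WT-277 and was not called (-1.64 ± 0.42 without WT-260, adjusted p = 0.059).

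Of 19 matrix proteases and inhibitors 6 were called lower and 1 higher without WT-260 (against 6.08% of all genes higher and 3.27% lower), the count of higher genes being near the background. *Timp2*, a metalloprotease inhibitor, was at 9.31, 10.15 and 9.82 log2 CPM in WT samples, against 8.96, 8.87 and 9.06 in *Gadlor*-KO samples, a log2 fold change of -1.02 ± 0.20. *Timp4*, an inhibitor known from the heart, was at 2.51, -2.79 and -0.98 in WT samples, against 5.77, 3.34 and 3.59 in *Gadlor*-KO samples, a log2 fold change of 6.12 ± 0.82. The groups of both did not overlap, and the *Timp4* level of *Gadlor*-KO FBs was 13.7% of that of *Gadlor*-KO ECs. Of 16 matrix receptors 3 were called lower and 1 higher, against the same shares. *Ddr1*, a collagen receptor kinase, was at -1.30 ± 0.26 and *Itga7*, a laminin-binding integrin of muscle, at 1.14 ± 0.21.

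**Figure D5:**
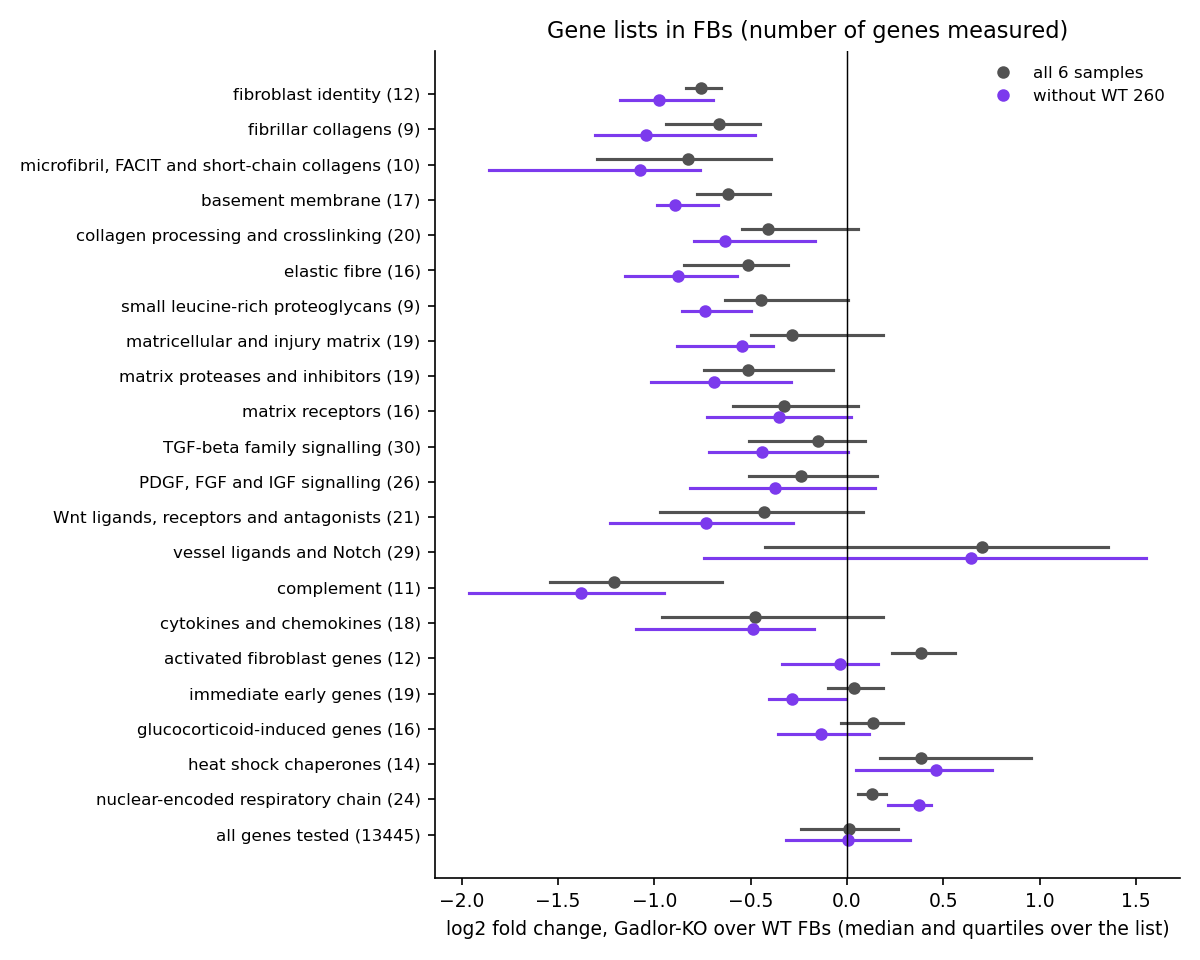
Log2 fold change from WT to *Gadlor*-KO FBs (x axis) for gene lists and all genes, as the median (point) and quartiles (line) over each list, over all 6 samples and without WT-260. Complement had a median of -1.21 over all 6 samples and -1.38 without WT-260, and vessel ligands and Notch 0.70 and 0.64.

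Of 30 TGF-beta family genes 2 were called lower without WT-260, *Gdf10* and the receptor *Tgfbr2* at -0.91 ± 0.19, and 1 higher, *Id1*, a target of BMP receptors. Both counts are near the shares of all genes, 3.27% lower and 6.08% higher. *Id1* was at 3.53, 3.17 and 2.5 log2 CPM in WT samples, against 5.80, 5.55 and 4.70 in *Gadlor*-KO samples, a log2 fold change of 2.51 ± 0.36, and the *Gadlor*-KO FB level was 29.2% of that of *Gadlor*-KO ECs. *Tgfbr3*, the coreceptor betaglycan, was at -0.89 ± 0.22 and not called, although its groups did not overlap.

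Of 26 genes of PDGF, FGF and IGF signalling 3 were called higher and 3 lower without WT-260 (against 6.08% of all genes higher and 3.27% lower). *Pdgfb*, the PDGF chain that endothelium makes, was higher by 3.06 ± 0.38 on the log2 scale and *Igf2*, an insulin-like growth factor, by 2.04 ± 0.17. For *Igf2* WT-260, at 5.75, lay above every *Gadlor*-KO sample, and the other WT samples were at 3.28 and 3.55. *Igfbp4*, a secreted IGF-binding protein, was called lower at -1.20 ± 0.19. *Igf1*, a growth factor that cardiac fibroblasts secrete, was at 6.47, 7.49 and 6.80 log2 CPM in WT samples, against 5.79, 6.24 and 6.35 in *Gadlor*-KO samples. *Fgfr1*, an FGF receptor of fibroblasts, was at 8.05, 8.27 and 8.48 in WT samples, against 7.88, 7.64 and 7.79 in *Gadlor*-KO samples. The groups of both did not overlap, but neither was called, at -1.02 ± 0.27 and -0.60 ± 0.18 without WT-260 (adjusted p = 0.0617 and 0.083).

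Of 21 Wnt ligands, receptors and antagonists 6 were called lower and 1 higher without WT-260 (against 6.08% of all genes higher and 3.27% lower). *Fzd7*, a Wnt receptor, was at 4.05, 4.83 and 4.82 log2 CPM in WT samples, against 3.73, 3.41 and 3.65 in *Gadlor*-KO samples. *Axin2*, a target of beta-catenin, was at 2.25, 3.32 and 2.82 in WT samples, against 2.02, 1.49 and 1.66 in *Gadlor*-KO samples. The groups of both did not overlap, and the log2 fold changes without WT-260 were -1.23 ± 0.16 and -1.35 ± 0.26. *Fzd1*, another Wnt receptor, was at -1.67 ± 0.17, but WT-260, at 4.08, lay below every *Gadlor*-KO sample.

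Of 29 vessel ligands and Notch genes 10 were called higher and 4 lower without WT-260 (against 6.08% of all genes higher and 3.27% lower), and 14 had groups that did not overlap with higher levels in *Gadlor*-KO FBs, against 12.2%. *Jag2*, a Notch ligand, was at 3.07, -0.63 and 1.06 log2 CPM in WT samples, against 5.46, 4.98 and 4.61 in *Gadlor*-KO samples. *Dll1*, another Notch ligand, was at 2.57, -1.28 and -0.13 in WT samples, against 3.27, 3.22 and 3.11 in *Gadlor*-KO samples. *Efna1*, an ephrin ligand, was at 2.82, 1.67 and 1.27 in WT samples, against 3.99, 3.39 and 3.52 in *Gadlor*-KO samples. WT-260 had the highest WT value of all 3, as it had for the endothelial marker sum. Without WT-260 the log2 fold changes were 4.80 ± 0.49, 3.91 ± 0.35 and 2.17 ± 0.24 for *Jag2*, *Dll1* and *Efna1*, and *Sema3f*, a semaphorin, was at 2.46 ± 0.26. The *Gadlor*-KO FB levels were 19.5% of those in *Gadlor*-KO ECs for *Jag2*, 40.6% for *Dll1*, 23.1% for *Efna1* and 17.6% for *Sema3f*. With the endothelial covariate the log2 fold changes without WT-260 became 0.29 for *Jag2*, 1.19 for *Dll1*, 2.69 for *Efna1* and 3.17 for *Sema3f*, none of them called, and that of *Dll1* over all 6 samples became -0.11. The median of the list became 0.40 over all 6 samples, from 0.70, and 0.74 without WT-260, from 0.64. *Angpt2*, an angiopoietin, was not called, at 0.79 ± 0.25 over all 6 samples (adjusted p = 0.218) and 0.70 ± 0.27 without WT-260, although its groups did not overlap. Of 8 measured genes that the study names for FBs, 2 were called higher without WT-260, *Dll1* and *Efna1*, and 1 lower, *Col6a1*. These genes were chosen on the same samples, so their RNA-seq values are not independent evidence of a direction. The study also reports RT-qPCR of these genes in isolated FBs, which is not part of these data.

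Of 18 cytokines and chemokines 2 were called lower and 1 higher without WT-260 (against 6.08% of all genes higher and 3.27% lower). *Cxcl13*, a B cell attractant, was at 2.19, 3.92 and 2.20 log2 CPM in WT samples, against -0.08, 0.34 and -2.31 in *Gadlor*-KO samples, a log2 fold change of -3.74 ± 0.86. *Cxcl9*, a chemokine induced by interferon gamma, was at 0.37, 0.95 and -1.20 in WT samples, against 2.15, 3.46 and 2.55 in *Gadlor*-KO samples, a log2 fold change of 2.84 ± 0.66. *Csf1*, the growth factor of macrophages, was at -0.87 ± 0.18. All 3 genes had groups that did not overlap.

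Of 19 immediate early genes 0 were called in either fit (limma, with 0 past the unadjusted p and the fold threshold over all 6 samples). *Nr4a1*, a nuclear receptor of that class, and *Junb*, an AP-1 subunit, had log2 fold changes of -0.11 ± 0.48 and -0.31 ± 0.42 over all 6 samples, and WT-260 lay below every *Gadlor*-KO sample in 16 of the 19 genes. Of 16 glucocorticoid-induced genes 2 were called higher without WT-260 (against 6.08% of all genes), *Rasd1* and *Sgk1*, a serum- and glucocorticoid-regulated kinase. *Sgk1* was at 5.22, 5.59 and 5.45 log2 CPM in WT samples, against 7.85, 7.15 and 6.69 in *Gadlor*-KO samples, with groups that did not overlap. Its log2 fold change was 1.81 ± 0.30 over all 6 samples (adjusted p = 0.136) and 1.71 ± 0.33 without WT-260 (adjusted p = 0.0232), and the *Gadlor*-KO FB level was 33.0% of that of *Gadlor*-KO ECs. The 15 genes of the list other than *Rasd1* had a median of 0.12 over all 6 samples and -0.15 without WT-260, which became 0.09 with CPM scaled to nuclear-encoded genes.

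Of 13 mitosis genes and 24 nuclear-encoded respiratory chain genes 0 were called in either fit (limma, with 0 past the unadjusted p and the fold threshold over all 6 samples and 1 higher in each list without WT-260). The respiratory chain genes had a log2 fold change above 0 in 21 of 24 over all 6 samples and in 23 without WT-260. Their median was 0.13 and 0.37, against 0.01 and 0.00 over all genes, and -0.33 and -0.06 with the endothelial covariate. WT-260 lay above every *Gadlor*-KO sample in 18 of the 24, against 29.9% of all genes. *Aurka*, a mitotic kinase, was at -0.17, -0.79 and -0.44 log2 CPM in WT samples, against 0.15, 0.62 and 0.55 in *Gadlor*-KO samples, a log2 fold change of 1.05 ± 0.37 without WT-260 (adjusted p = 0.128). Its groups did not overlap. Of 21 mitochondrially encoded genes 20 were called higher without WT-260 (against 6.08% of all genes), at a median of 4.17, but WT-260 lay above every *Gadlor*-KO sample in all 21.

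*Lsamp*, the gene on chromosome 16 from 39984361 to 42181679 in whose intron the deleted segment lies, had overlapping groups. Its level was 3.97, 1.73 and 3.60 log2 CPM in WT samples, against 1.82, 3.23 and 3.84 in *Gadlor*-KO samples, a log2 fold change of -0.13 ± 0.73 over all 6 samples (adjusted p = 0.954) and 0.30 ± 0.71 without WT-260. *Xist*, the X-inactivation RNA of female cells, was at 0.13, -1.06 and 7.68 in WT samples, against 2.99, 7.01 and 6.82 in *Gadlor*-KO samples, and KO-240 thus held *Xist* beside Y-linked RNA.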

How the data were processed

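RNA-seq of 6 FB samples (3 WT, 3 *Gadlor*-KO) was analysed from the table the authors deposited, which holds log2 CPM per transcript. Per the study's methods, stranded mRNA libraries were trimmed with FastqCleaner, aligned with bowtie2 to mm10 and annotated with biomaRt. The counting tool is not given in the sources used here. The authors' columns of fold changes, p-values and FDR were not used. Transcripts without a symbol (1.04%) were left out, and for each symbol the transcript of the highest mean was kept (13445 genes). In 6381 genes several transcripts were listed, and 5550 transcripts had values identical to another, so isoforms were not examined and overlapping genes or close copies are uncertain. Values are not divided by length, so levels were not compared between genes. The lowest value, -5.19, reflects a prior count, which shrinks the changes of low genes.

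Genotypes were tested with limma 3.58.1 (trend and robust empirical Bayes, statmod 1.5.0, R 4.3.3) over all 6 samples and without WT-260, with p-values adjusted by Benjamini and Hochberg over all genes. SEs are those of the fit. Low values were whole multiples of 1 read in 100% of those examined (within 0.1 read), which gave effective libraries of 15 to 59.8 M reads. In simulated tables with 50 of 13445 genes changed at each size, limma recovered 54% of changes of 2 and 90% of changes of 4 on the log2 scale over all 6 samples, and 72% and 82% without WT-260, with 7 false among 143 and 141 calls. The simulated noise was independent between genes and had the same spread in every sample. It held no outlying sample and no shift shared by many genes, so these rates do not measure power or false calls in the real samples.

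The comparison, the gene lists and the rule for named genes were chosen with earlier results of these data known. The rule takes the 12 largest rises and falls without WT-260 among called genes with a mean log2 level of at least 10 CPM over all 6 samples. Their groups did not overlap, and predicted genes were left out. It also takes genes called over all 6 samples and up to 4 members of each of 38 lists by p. Added to these are the markers and the genes the study names for FBs. Of the latter, *Aurkb* was not analysed here. 1 gene that the rule names is not reported here. EC and CM tables, normalized separately, served only as a scale for RNA of other cells. Alternatives covered the value per gene, scaling, low-value filter, pseudocount, thresholds, limma settings, sample weights, covariates and leaving out each sample. Tables were made with python 3.11.15, pandas 2.3.3 and numpy 2.4.6 and drawn with matplotlib 3.10.9. Gene positions are those of GENCODE vM21 on mm10.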

Additional observations from a re-analysis of the deposited data

Results flagged for a closer look

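For the genes named here the genotype groups of FBs and those of another cell type both failed to overlap, but in opposite directions. The difference between the cell types was not tested in any of them, and the tables were normalized separately. Only named genes are listed, so the counts below are not shares of all genes.

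Against ECs this held for 9 genes with higher levels in *Gadlor*-KO FBs and lower levels in *Gadlor*-KO ECs. Their log2 differences in ECs, *Gadlor*-KO minus WT, were -0.74 for *Rsad2*, -0.97 for *Plk2*, -2.14 for *Cyp26b1*, -0.26 for *Flt1*, -0.41 for *Lama5*, -0.53 for *Dll1*, -1.32 for *Cxcl9*, -1.18 for *Dnaja1* and -2.87 for *Hsph1*. The chaperones *Dnaja1* and *Hsph1* and the interferon-induced genes *Rsad2* and *Cxcl9* are among them.

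Against CMs it held for 30 genes with lower levels in *Gadlor*-KO FBs and higher levels in *Gadlor*-KO CMs. Their log2 differences in CMs were 4.15 for *C3*, 2.58 for *Gdf10*, 3.82 for *Ildr2*, 4.24 for *Col6a6*, 3.88 for *Adamts12*, 1.97 for *Cfb*, 4.91 for *Ighm*, 3.30 for *Col6a3*, 4.60 for *Cpxm1*, 4.0 for *Ugt1a10*, 4.0 for *Ugt1a8*, 4.29 for *Ddr2*, 3.84 for *Islr*, 4.03 for *Cd248*, 4.59 for *Clec3b*, 5.02 for *Dcn*, 3.72 for *Col6a1*, 3.22 for *Nid1*, 2.95 for *Pcolce*, 4.35 for *Efemp1*, 3.90 for *Tnxb*, 3.47 for *Timp2*, 4.52 for *Igfbp4*, 2.55 for *Fgfr1*, 4.12 for *Igf1*, 1.73 for *Fzd7*, 4.20 for *C1ra*, 4.44 for *C4b*, 4.0 for *Upk3b* and 3.91 for *Col6a2*. Most are genes of fibroblasts, matrix or complement, but the rule for named genes drew on lists of such genes, so this make-up follows from the choice. Beside these 30 genes, the mean of the 12 fibroblast identity genes ranged from 2.14 to 3.06 log2 CPM over WT CM samples and from 5.84 to 6.99 over *Gadlor*-KO CM samples, without overlap. The part of fibroblast RNA in these CM differences was not tested. The opposite order, higher in *Gadlor*-KO FBs and lower in *Gadlor*-KO CMs, was found for 2 genes, with log2 differences in CMs of -1.23 for *Lama5* and -2.46 for *Itga7*.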

How the results depend on the processing

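No paired analysis was possible because the WT and *Gadlor*-KO FB samples share no replicate numbers. Over all 6 samples the counts of 1 gene called higher and 0 lower became 2 higher with CPM summed over transcripts or with log2(CPM + 1), 7 with log2(CPM + 5), 4 without trend and robust fitting, 0 with nuclear scaling or a Y-linked or endothelial covariate, 13 higher and 3 lower with the mitochondrial share as a covariate, and 1573 higher and 1172 lower with array weights (0.242 for WT-260, 4.68 for KO-241). Leaving out 1 sample gave 0 to 818 higher and 0 to 440 lower, WT-260 being the sample behind the highest counts. Without WT-260, 818 higher and 440 lower became 1437 and 228 with nuclear scaling and 0 and 0 with the endothelial or the mitochondrial covariate, and the lower genes became 672 with equal medians, 254 with a fold above 2 and 276 without trend and robust fitting. Leaving out a further sample gave 353 to 975 higher and 48 to 775 lower, lowest without KO-241 and highest without KO-240. The cause of these shifts was not tested. Of 109 named genes 88 were called without WT-260. Of the 109, direction and side of the threshold were kept by 91 to 109 under other values per gene, scalings, filters, pseudocounts, thresholds and limma settings, 90 with the Y-linked covariate, 15 with the mitochondrial and 10 with the endothelial covariate, and by 60 (KO-241), 68 (WT-277), 77 (KO-242), 88 (WT-283) and 91 (KO-240) on leaving out a further sample.

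Log2 fold changes that turned direction over all 6 samples with the endothelial covariate were 0.52 for *Col3a1*, 0.35 for *Col1a1* and -0.11 for *Dll1*. Those without WT-260 with that covariate were -1.98 for *Gpihbp1*, -1.72 for *Ushbp1*, -2.58 for *Cdh5*, -1.69 for *Adgrl4*, -3.73 for *Robo4*, -2.34 for *Arhgef15*, -1.26 for *Cd300lg*, -0.94 for *Egfl7*, -1.38 for *Tie1*, -2.83 for *Rasip1*, 3.2 for *Myrf*, 1.23 for *Ildr2*, 0.44 for *Cfb*, 0.65 for *Ighm*, 1.69 for *Cpxm1*, 0.53 for *Ugt1a10*, 0.53 for *Ugt1a8*, 0.045 for *Lum*, 0.45 for *Dcn*, 1.11 for *Postn*, 0.075 for *Thbs4*, 0.60 for *Gata6*, 0.16 for *Col5a1*, 1.67 for *Col3a1*, 1.93 for *Col1a1*, 0.39 for *Col14a1*, 0.95 for *Tnc*, 1.94 for *Fn1*, 0.65 for *Ddr1*, -0.30 for *Pdgfb*, 0.99 for *Igf1*, 0.055 for *C4b*, 0.72 for *Nr4a1*, -0.71 for *Hspa1a*, -1.33 for *Hspa1b*, 2.60 for *Upk3b*, -2.18 for *Lsamp* and -14.16 for *Xist*. With the mitochondrial covariate they were 0.11 for *C3*, 0.62 for *Ugt1a10*, 0.62 for *Ugt1a8*, 1.80 for *Thbs4*, 0.12 for *Tgfbr2*, 5.18 for *Cxcl13*, 0.011 for *Nr4a1*, 0.29 for *Junb*, -4.31 for *Lsamp*, -5.57 for *Xist* and 17.41 for *Col6a5*. The Y-linked covariate gave -0.37 for *Lsamp*, and leaving out 1 further sample gave -0.63 (WT-277) to 1.24 (WT-283) for *Lsamp*, with -0.14 for KO-242, and -2.07 (WT-277) to 6.67 (WT-283) for *Xist*. Endothelial and mitochondrial values of WT-277 and WT-283 did not overlap those of *Gadlor*-KO samples. Array weights were fitted over all 6 samples only. WT-260 had the smallest effective library, 15 M reads, which is a divisor and not a count of reads sequenced. Mitochondrially encoded genes took 73.8% of its CPM.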
